A study of Homo sapiens with 2 samples.

Results

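The genes examined were the 41 members of a stretch of the long arm of chromosome 12, out of 19368 genes with an NM_ (protein-coding RefSeq) transcript and 27685 genes listed in all. Members were taken by position: a gene with an NM_ transcript that starts from 57881736 to 66220754 on chromosome 12 of hg19, a window of 8.34 Mb. Of the 43 such genes, 2 were not analysed here. The window had been chosen because its genes were lower in H596 than in H2087 as a group, so the direction of that difference over the members is a description, and it carries no test. What the choice did not fix was how the difference is spread along the window, where it begins and ends, which transcripts carry it, and how genes elsewhere that work with the members behave.

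The data were 1 RNA-seq library of H2087 cells and 1 of H596 cells. Both are established human lung tumor lines labelled as lung adenocarcinoma, both were untreated, and both were grown in RPMI medium with fetal bovine serum. With 1 library per line there is no replicate spread, so no difference between the lines was tested, and each interval given is a 95% interval that covers counting error only. Levels are FPKM values, that is, fragments relative to transcript length and library size, and a difference is that of log2(FPKM + 1), H596 minus H2087, a scale that understates the change of low genes.

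The total estimated count was 46961500 for H2087 and 55387847 for H596. Tested genes were those with an NM_ transcript whose FPKM averaged 1 or more over the libraries, 11902 in all, and their median difference was 0.11. The epithelial markers had an FPKM of at least 1 in both libraries, 5 of 5 in each, whereas the endothelial markers were below it, 0 of 3 in each. Of 5 lung adenocarcinoma markers, 4 reached that level in H2087 but only KRT7 did in H596. Of 5 squamous markers, 2 did in H2087 and 5 in H596. Of the fibroblast markers 1 of 5 did in each library (COL1A1 in H2087 and DCN in H596), and of the leukocyte markers 1 of 4 did in each (CD68), with PTPRC and CD3E at 0 in both. H596 thus lacked NKX2-1, NAPSA and SFTA3 above that level, and it carried TP63, KRT5, KRT6A and DSG3, against its label. The part of this in the differences below was not tested.

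As background, the window covers the bands 12q13 and 12q14, where many unrelated genes lie side by side and are followed by a stretch with few genes. These genes have no common pathway: they include enzymes of transfer RNA and translation factors, proteins of endoplasmic reticulum quality control, membrane ubiquitin ligases, phosphatases and the chromatin protein HMGA2. The region is best known in tumors as a recurrent site of DNA amplification, as in gliomas and liposarcomas. DNA copy number was not analysed here.

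Promoters of 3 members are shown because these genes stand at the places on which the description turns: TSFM in the middle of the lowest stretch, ATP23 at its last gene, and LRIG3 as the next tested gene, which went the other way. Each run is 300 bases, 250 before and 50 after the annotated start, from RefSeq on GRCh38.p14. Only the sequences use that build; all other positions are hg19. Capitals mark CG dinucleotides. The TSFM promoter lies at chr12:57782537-57782836 on the plus strand, that of ATP23 at chr12:57941317-57941616 on the plus strand, and the LRIG3 starts at chr12:58919456-58919755 and chr12:58920455-58920754 on the minus strand.
TSFM: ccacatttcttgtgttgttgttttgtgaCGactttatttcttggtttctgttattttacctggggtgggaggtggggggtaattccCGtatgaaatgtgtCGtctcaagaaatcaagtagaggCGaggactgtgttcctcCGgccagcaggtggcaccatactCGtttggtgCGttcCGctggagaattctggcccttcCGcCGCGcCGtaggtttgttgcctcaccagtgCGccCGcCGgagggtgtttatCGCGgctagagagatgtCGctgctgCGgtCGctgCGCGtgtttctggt
ATP23: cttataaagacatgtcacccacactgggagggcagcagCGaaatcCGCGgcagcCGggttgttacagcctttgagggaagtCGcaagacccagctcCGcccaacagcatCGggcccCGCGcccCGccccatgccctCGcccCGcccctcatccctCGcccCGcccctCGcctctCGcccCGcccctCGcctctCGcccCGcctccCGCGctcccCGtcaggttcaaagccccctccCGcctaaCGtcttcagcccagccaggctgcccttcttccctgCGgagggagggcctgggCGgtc
LRIG3, first entry: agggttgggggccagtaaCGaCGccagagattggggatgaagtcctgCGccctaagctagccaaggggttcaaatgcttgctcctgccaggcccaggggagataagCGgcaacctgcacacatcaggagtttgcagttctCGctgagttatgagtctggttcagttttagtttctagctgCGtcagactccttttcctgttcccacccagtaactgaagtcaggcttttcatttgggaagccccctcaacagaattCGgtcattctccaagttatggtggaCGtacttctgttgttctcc
LRIG3, second entry: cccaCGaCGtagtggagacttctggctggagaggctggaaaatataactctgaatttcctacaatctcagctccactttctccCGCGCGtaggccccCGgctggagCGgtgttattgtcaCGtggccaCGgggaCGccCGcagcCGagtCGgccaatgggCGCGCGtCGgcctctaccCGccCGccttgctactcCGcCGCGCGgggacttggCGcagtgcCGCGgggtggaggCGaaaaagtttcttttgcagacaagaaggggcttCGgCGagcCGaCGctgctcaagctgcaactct
TSFM held 22 CG dinucleotides, ATP23 27, and the LRIG3 entries 8 and 31. For comparison, the median over all 35116 promoters in the table was 14. A promoter was at hand for 7 of the 10 genes of the lowest stretch, with a median of 22 and a range from 3 (AVIL) to 30 (MARCH9), and for 15 other tested members, with a median of 30.0.

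Over the members the level was lower in H596 for most genes, but unevenly. Of the 41 members, 31 were tested and 10 were too low. Of the 31, 26 were lower in H596 by any amount, beside 45% of all genes tested (5352 genes). On the log2(FPKM + 1) scale 15 were at least 2-fold lower, beside 14.1% of all genes tested, and 1 was at least 2-fold higher, beside 18.0%. A call of at least 8-fold lower, added after the data were seen, took in 7 members, beside 1.86% of all genes tested. The median difference over the 31 was -0.94. Measured from the median of all genes tested, it was -1.05. The counting interval of the ratio between the libraries lay wholly above 1 (higher in H2087) for 26 members. It lay wholly below 1 for LRIG3, SRGAP1 and LEMD3, and it included 1 for MBD6 and MON2. The share of all genes tested whose interval left out 1 was not counted, so these numbers only describe the members. MBD6 and MON2, slightly higher in H596 on the FPKM scale, were slightly lower when counts were scaled by TMM, which sets the bulk of genes to no change, or differences were centred on the median of all genes.

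**Figure D1:**
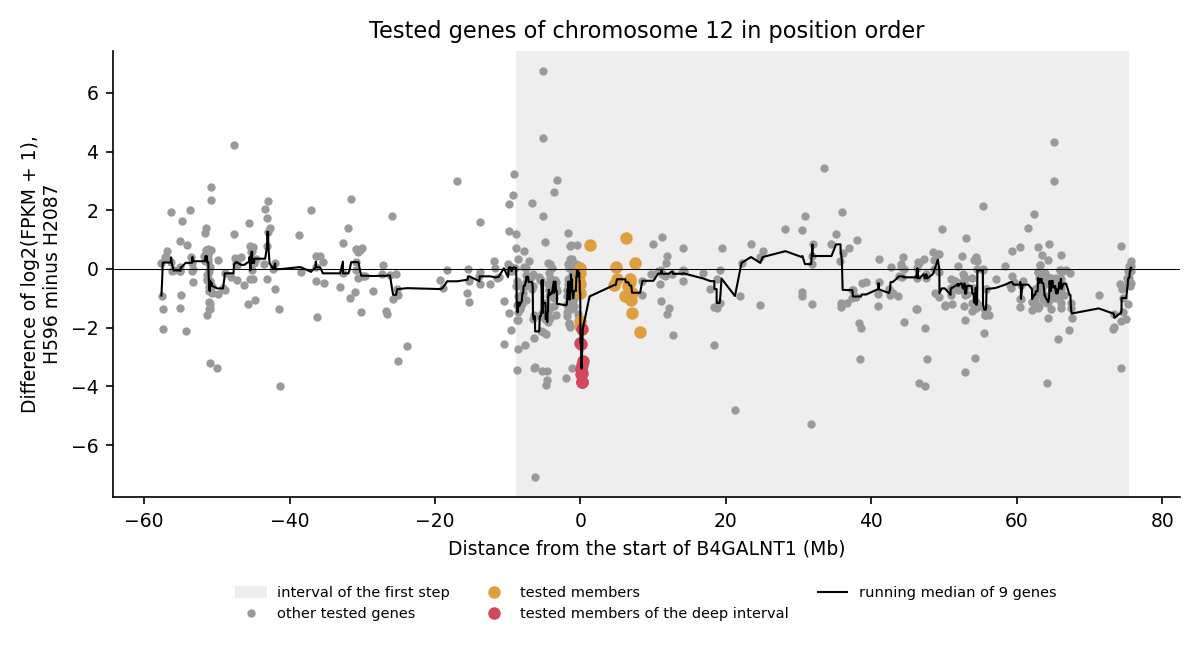
Difference of log2(FPKM + 1), H596 minus H2087 (vertical axis), of the 617 tested genes of chromosome 12 by distance in Mb from the start of B4GALNT1 (horizontal axis). Orange and red points are tested members, the red ones those of the lowest stretch. The line is the running median of 9 genes and the grey band the interval of the first step. The red points fall between -3.86 and -2.04, while the orange points to the right lie between -2.13 and 1.04.

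To find the ends of the shift, the interval of at least 5 tested genes was sought for which the genes inside and outside it deviated least, in summed absolute terms, from their own medians. On chromosome 12, with 617 tested genes, this gave a far longer interval than the window: 84.1 Mb and 432 genes, from DDX23 to ANKLE2, starting at 49223539 and ending at 133338474. Its median difference was -0.67, against -0.05 for the 185 tested genes outside it. At its first gene, DDX23 (an RNA helicase of the spliceosome) had an FPKM of 48.1 in H2087, compared with 35.8 in H596, RND1 3.33 and 0.311, and FKBP11 36.9 and 2.50. Just outside, CACNB3 had 3.89 and 7.10, ADCY6 2.69 and 7.43, and CCNT1 9.61 and 6.14. At its last gene, ANKLE2 had 17.5 and 12.9, PGAM5 36.9 and 15.4, and PXMP2 24.2 and 16.0, whereas outside it GOLGA3 had 13.4 and 12.7, CHFR 8.26 and 6.53, and ZNF605 4.39 and 4.77. The genes next to either end therefore differed by amounts that overlap, and the ends of this long and shallow interval are not sharp.

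Inside the long interval the same criterion, applied again after the data were seen, gave a short stretch with a much larger difference. This deep interval ran from B4GALNT1 to ATP23, from 58019678 to 58351052, a length of 331 kb with 10 tested genes, all of them members. Its median difference was -3.34, against -0.66 for the other 422 tested genes of the long interval. It thus covers a small part of the window. The members outside it, 21 tested genes, had a median of -0.52, beside -0.81 for the 136 tested genes of the long interval before the window and -0.59 for the 265 after it. Squared deviations in place of absolute ones, or a search from 45 to 80 Mb alone, returned the deep interval at the first step.

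At its first gene the edge was stepped. The members before it went from MARS (-0.42), DDIT3 (-0.14), MBD6 (0.03) and DCTN2 (-0.52) through PIP4K2C (-1.95), DTX3 (-0.81) and ARHGEF25 (-1.76) to B4GALNT1 (-2.52), OS9 (-2.56) and TSPAN31 (-3.39), each value a difference of log2(FPKM + 1). Only 8.65 kb separate ARHGEF25 from B4GALNT1, and the first gene moved between ARHGEF25, B4GALNT1, OS9 and TSPAN31 with the settings used. At the other end the change was abrupt in the genes that could be measured. ATP23 (-3.12) was the last gene under every setting that gave an interval, and the next tested gene, LRIG3, was higher in H596 (0.82). These genes are 915 kb apart, and between them the table lists only the noncoding LINC02403, LINC02388 and LOC100506869, each at 0 counts in both libraries, so the end cannot be placed more closely. A single split of the 31 tested members by the same criterion fell at the same place, with a median of -2.52 over the 17 members up to ATP23 and of -0.50 over the 14 from LRIG3 on.

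**Figure D2:**
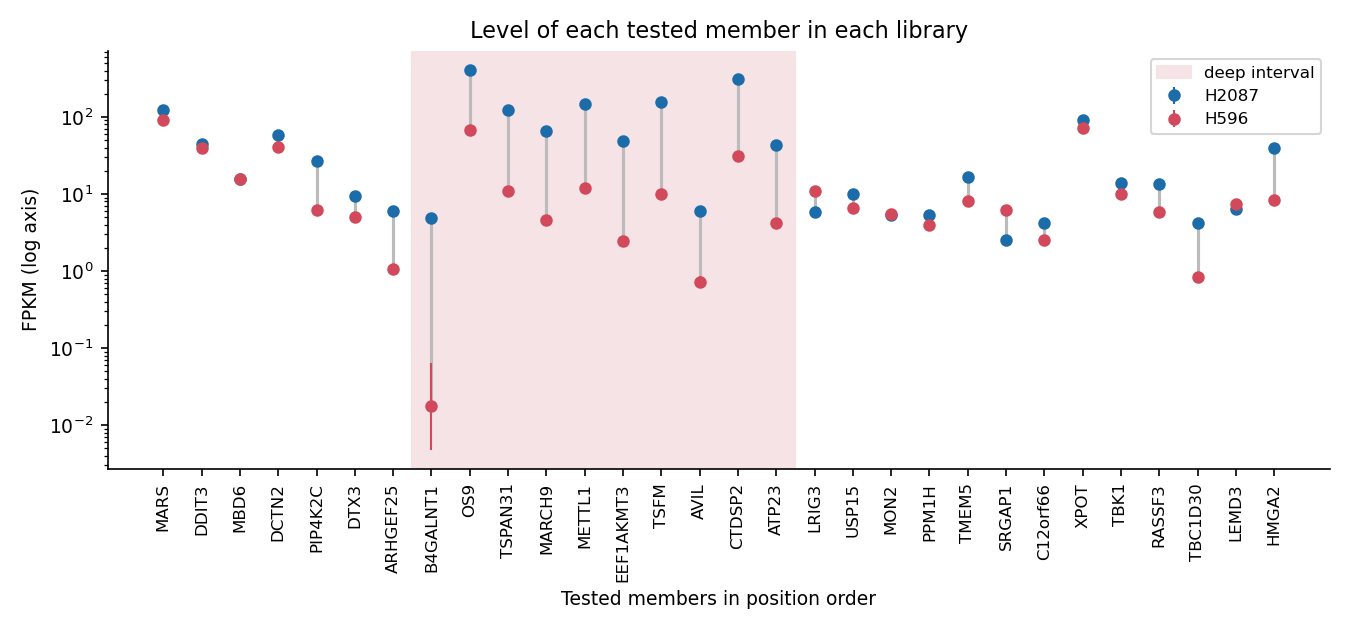
FPKM on a log axis of 30 of the 31 tested members in position order, in H2087 (blue) and H596 (red), with 95% counting intervals as bars where they are larger than the points. The shaded genes, B4GALNT1 to ATP23, are the run with wide gaps between the lines, among them 406 against 68.3 for OS9 and 4.85 against 0.0176 for B4GALNT1.

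The genes of the deep interval were, apart from B4GALNT1 and AVIL, abundant transcripts of H2087. Together their FPKM values summed to 1317 in H2087 and 144 in H596, a ratio of 9.13, and they held 0.392% and 0.0438% of the estimated counts, respectively. Ranked by FPKM among the 19368 genes with an NM_ transcript, their median percentile was 95.7 in H2087 and 59.5 in H596. In H2087, 5 of the 10 reached an FPKM of 100, and in H596 0 did. Few genes reach that level in either library. In H2087 an FPKM of 90.1 (XPOT) stood at percentile 96.0, and in H596 one of 90.7 (MARS) stood at percentile 96.4. They lie on both strands, 6 on plus and 4 on minus, and range in length from 3.26 to 27.6 kb.

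Of the genes tied to RNA and translation, METTL1, which encodes the catalytic subunit of the enzyme that places 7-methylguanosine in transfer RNA, had an FPKM of 149 (146 to 152) in H2087, compared with 11.9 (11.1 to 12.7) in H596, a ratio of 12.5. TSFM encodes the mitochondrial elongation factor Ts, which recycles the factor Tu. Its FPKM was 157 (154 to 159) in H2087 and 10.1 (9.50 to 10.7) in H596, a ratio of 15.6 (14.7 to 16.6). EEF1AKMT3, a lysine methyltransferase that acts on the elongation factor eEF1A, had 48.8 and 2.43, a ratio of 20.1 (18.1 to 22.3). Among the members with more than 3 counts in both libraries, this was the largest ratio.

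The most abundant members of the deep interval encode a lectin and a phosphatase. OS9, a lectin of the endoplasmic reticulum that hands misfolded glycoproteins to degradation, had an FPKM of 406 (403 to 410) in H2087, compared with 68.3 (67.0 to 69.6) in H596. Its ratio of 5.95 (5.83 to 6.07) was the smallest of the 10 genes. CTDSP2, a small phosphatase of the C-terminal domain of RNA polymerase II, had 312 (310 to 314) and 31.2 (30.6 to 31.9), a ratio of 9.99. ATP23, a peptidase for assembly of the mitochondrial ATP synthase, had 43.8 (42.2 to 45.5) and 4.14 (3.71 to 4.63), a ratio of 10.6. The intervals of the libraries were far apart in each of these genes.

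The genes of membrane and cytoskeletal proteins were lower as well. TSPAN31, a tetraspanin, had an FPKM of 124 in H2087, compared with 10.9 in H596, a ratio of 11.4 (10.7 to 12.1), and 517 of its bases overlap a gene not analysed here. MARCH9, a membrane-bound ubiquitin ligase, had 65.6 and 4.58, a ratio of 14.3 (13.3 to 15.4). AVIL, an actin-binding protein of the villin family, had 6.05 and 0.717, a ratio of 8.43 (6.97 to 10.3), and 5480 of its bases overlap TSFM on the opposite strand. The kit preserved strand, but whether the counting used it is not stated in the sources used here, so reads of this overlap cannot be assigned with certainty.

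B4GALNT1, the synthase of the gangliosides GM2 and GD2, stood apart by its low level. It had 610 counts and an FPKM of 4.85 in H2087, and 2 counts and an FPKM of 0.0176 in H596. With so few counts the ratio of 275 had an interval from 75.9 to 2279, and on the log2(FPKM + 1) scale the difference was only -2.52. Except for this gene, the ratios of the deep interval lay between 5.95 and 20.1, although the H2087 levels of the same genes ranged from 6.05 to 406.

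**Figure D3:**
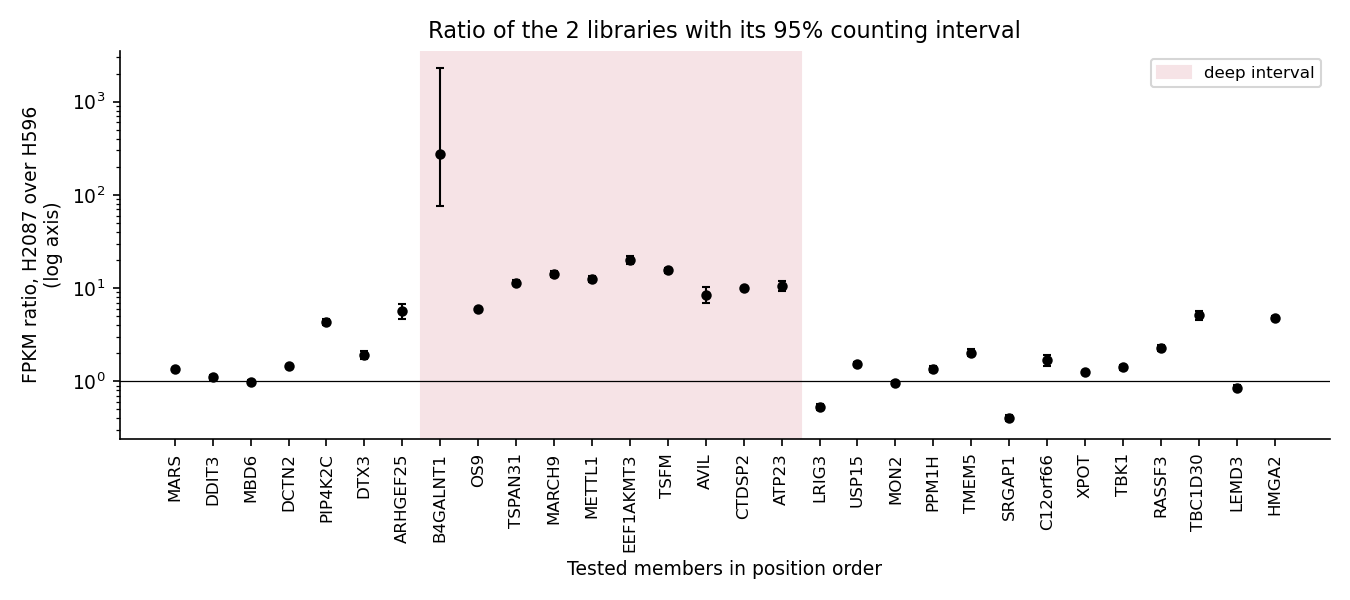
Ratio of FPKM in H2087 to that in H596 (log axis) of 30 of the 31 tested members in position order, with 95% counting intervals, and a line at equal levels. From OS9 to ATP23 the ratios lie between 5.95 and 20.1, B4GALNT1 reaches 275 with a wide interval, and LRIG3 and SRGAP1 are below the line at 0.526 and 0.403.

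Before the deep interval, MARS, the cytoplasmic methionyl-transfer RNA synthetase, had an FPKM of 122 (120 to 124) in H2087, compared with 90.7 (89.2 to 92.1) in H596. DDIT3, the stress-induced transcription factor also called CHOP, had 44.0 (42.1 to 46.0) and 39.8 (38.2 to 41.6), and MBD6, a methyl-CpG-binding domain protein, had 15.4 (14.9 to 16.0) and 15.8 (15.3 to 16.4). These first 3 members thus differed little, and the intervals of MBD6 overlap. DCTN2, a subunit of the dynein adaptor dynactin, had 58.9 (57.4 to 60.4) and 40.7 (39.6 to 41.9). The larger differences began with PIP4K2C, a phosphatidylinositol phosphate kinase, with 26.5 (25.7 to 27.4) and 6.13 (5.78 to 6.51), a ratio of 4.33. DTX3, a Deltex ubiquitin ligase, had 9.54 (8.97 to 10.2) and 5.02 (4.64 to 5.43), and ARHGEF25, a guanine nucleotide exchange factor, had 6.01 (5.59 to 6.45) and 1.07 (0.917 to 1.25).

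Beyond the gap the 14 tested members gave no common picture. LRIG3, a leucine-rich repeat membrane protein, had an FPKM of 5.78 (5.45 to 6.13) in H2087, compared with 11.0 (10.6 to 11.4) in H596, and SRGAP1, a GTPase-activating protein of Slit-Robo signaling, had 2.53 (2.38 to 2.69) and 6.27 (6.05 to 6.50). LEMD3, a protein of the inner nuclear membrane, had 6.40 (6.08 to 6.74) and 7.49 (7.17 to 7.82). All 3 were higher in H596, beyond the counting error. MON2, a regulator of trafficking between Golgi and endosomes, had 5.26 (5.06 to 5.47) and 5.48 (5.29 to 5.67), with overlapping intervals.

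Of the 14 tested members beyond the gap, 3 were at least 2-fold lower in H596 on the log2(FPKM + 1) scale, beside 14.1% of all genes tested. HMGA2, an architectural chromatin protein best known from embryonic tissue, had the largest difference among them, with an FPKM of 40.0 (39.0 to 40.9) in H2087, compared with 8.33 (7.97 to 8.72) in H596, a ratio of 4.80, and 2515 of its bases overlap the noncoding RPSAP52 on the opposite strand. TBC1D30, a Rab GTPase-activating protein, had 4.22 and 0.827, and RASSF3, a Ras association domain protein, had 13.3 and 5.92. HMGA2 thus differed about as much as PIP4K2C did, yet it stands 7.87 Mb beyond the deep interval, and on the log2(FPKM + 1) scale the tested members between them differed less.

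A further 6 were lower in H596 by less than 2-fold on that scale. TMEM5, a xylosyltransferase of alpha-dystroglycan, had an FPKM of 16.5 (15.7 to 17.4) and 8.16 (7.64 to 8.71). TBK1, the kinase that activates IRF3, had 14.0 (13.4 to 14.6) and 9.94 (9.49 to 10.4), and XPOT, the export receptor of transfer RNA, had 90.1 (88.7 to 91.4) and 71.6 (70.5 to 72.7). USP15, a ubiquitin-specific protease, had 10.1 (9.73 to 10.4) and 6.56 (6.31 to 6.82). The last of them, C12orf66 (a subunit of the KICSTOR complex) and PPM1H (a protein phosphatase), differed by -0.57 and -0.35. The difference of every one of these 6 lay between -0.94 and -0.33, a range that also holds the medians of the long interval on either side of the window.

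The 10 members that were not tested had a mean FPKM below 1. Of them, 8 had more counts in H2087 than in H596, and AVPR1A and WIF1 had 0 counts in both libraries. The same count over other genes below that level was not made, and several of the 8 rest on few counts, so this is a description. The highest by the mean of both libraries was SLC16A7, a monocarboxylate transporter, with an FPKM of 0.968 in H2087, compared with 0.471 in H596. C12orf56 had 118 counts and an FPKM of 1.18 in H2087 and 0 counts in H596, at least 46.4-fold lower when set against a floor of 3 counts. AGAP2, which lies within the deep interval, had 123 counts and 23 counts, an FPKM ratio of 6.10 (3.88 to 9.98), which is similar to that of its neighbor OS9. However, the noncoding AGAP2-AS1, with 5013 and 200 counts, lies within AGAP2. Whether the counting used strand is not stated, so reads of this overlap cannot be assigned with certainty. KIF5A and MSRB3 had an FPKM of 0.112 and 0.420 in H2087 and 0.00904 and 0.0652 in H596. SLC26A10, FAM19A2 and DPY19L2 had at most 12 counts in either library.

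At the borders of the window, INHBE just outside had a difference of -1.66 and MARS just inside one of -0.42, while HMGA2 just inside had -2.13 and LLPH just outside -0.89. The gene outside was thus the lower of the pair at the first border, and the gene inside at the last.

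The deep interval was also set beside the rest of the genome. Medians were taken over 11694 windows of 10 neighboring tested genes of 1 chromosome. The lowest median difference, -3.34, was that of the deep interval, and the overlapping window from ARHGEF25 to CTDSP2 equalled it. The next lowest that did not overlap the deep interval was on chromosome 7, from DNAJC30 to LAT2, at -2.21. It was followed by 1 on chromosome 5 (SMIM3 to ATOX1) at -1.94 and another on chromosome 12 (TFCP2 to KRT80) at -1.87. The members had been chosen from these same values, so this rank is a description.

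The transcripts of the deep interval were also counted singly. Of 29 transcripts listed for the 10 genes, 24 had a mean FPKM of at least 1, and all 24 were at least 2-fold lower in H596 on the log2(FPKM + 1) scale, beside 15.8% of the 20483 transcripts of tested genes at the same filter, while 7 were at least 8-fold lower, beside 1.69%. Since the 10 genes were chosen for their low sums, these counts are a description. The filter is on the mean of both libraries, so a transcript at or near 0 in H596 passes only if at least 2-fold lower. This applies to NM_001478 of B4GALNT1, NM_001330169 of TSPAN31, NM_001320408 of ATP23, NM_206914 of EEF1AKMT3 and NM_001172697 of TSFM. For these the 2-fold call adds nothing to the filter. The division of reads among transcripts of similar length and exons is an estimate of the authors' software, so single transcripts are less certain than gene sums. In 20 members with more than 1 transcript and an FPKM of at least 1 in both libraries, the leading transcript was the same in 19, beside 83.7% of 7025 genes treated alike. All 6 of these in the deep interval kept their leading transcript.

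A change of at least 50 percentage points in the share of the leading transcript was seen in 3 of the 20 members, beside 2.99% of genes. All 3 stand just before the deep interval. In DCTN2 the share of NM_001261413 was 92.4% in H2087 and 38.8% in H596. In PIP4K2C that of NM_024779 was 88.6% and 36.3%, so this transcript had an FPKM of 23.5 and 2.23, a ratio of 10.6, beside the gene's own ratio of 4.33. The leading transcript here is the one with the largest FPKM in H2087, a choice that favors a high ratio. In the same gene NM_001146258 (1.29 in H2087 and 2.20 in H596) and NM_001146259 (1.47 and 1.71) were higher in H596, while NM_001146260 (0.259 and 0) was lower. In ARHGEF25, NM_182947 held 98.3% in H2087 and was listed at 0 in H596, where the whole level was given to NR_046223, a noncoding transcript. Within the deep interval the widest change was in EEF1AKMT3, whose second transcript NM_206914 reached an FPKM of 17.4 in H2087, compared with 0.0390 in H596, from 7 counts.

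Genes elsewhere that act with the members differed in both directions. From 14 lists of complexes, enzyme families and pathways that each hold a member, 100 of 103 partner genes were tested. Of these, 12 were at least 2-fold lower and 10 at least 2-fold higher in H596, that is, 12% and 10%, beside 14.1% and 18.0% of all genes tested, and their median difference was -0.00. Of the 100, 1 was at least 8-fold lower, beside 1.86% of all genes tested. Among the partners, RAN (-1.52) and HSP90B1 (-0.31) lie outside the window but inside the long interval of chromosome 12. The others are on other chromosomes.

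**Figure D4:**
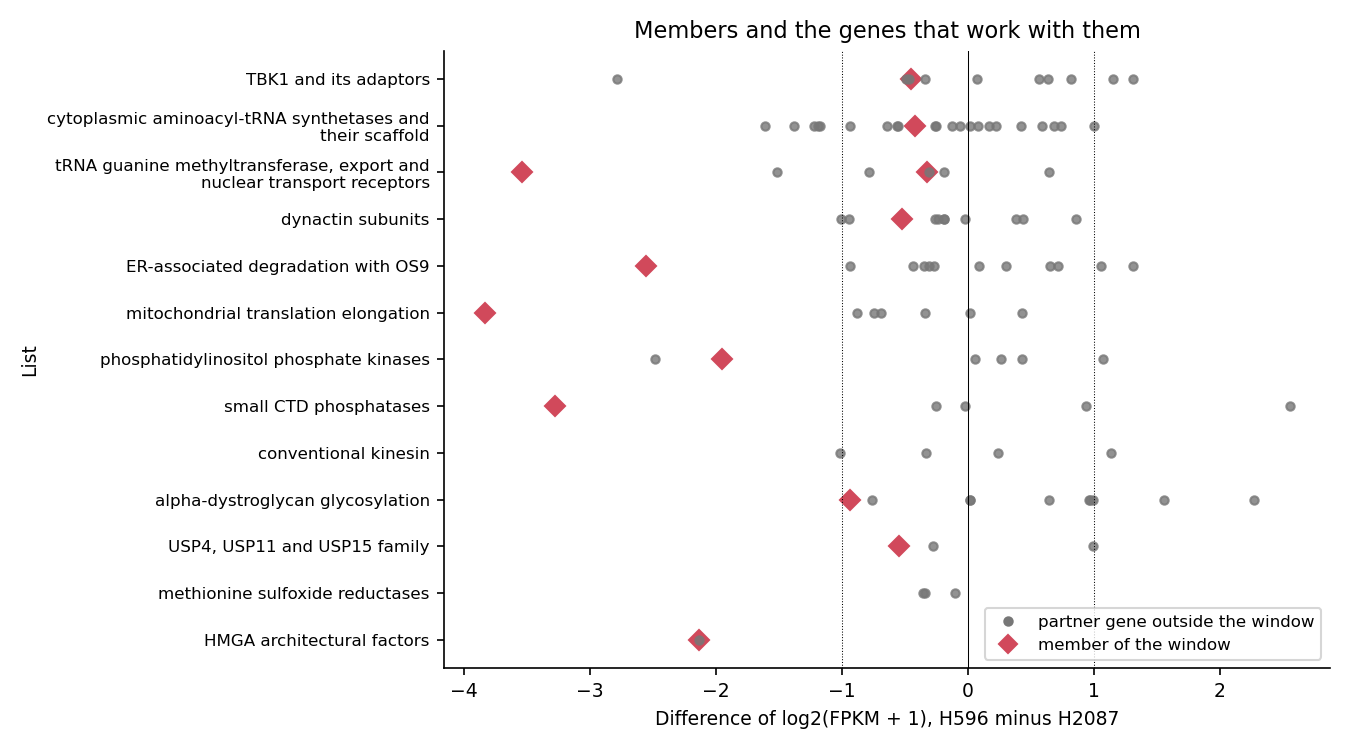
Difference of log2(FPKM + 1), H596 minus H2087 (horizontal axis), of tested partner genes outside the window (grey) and of tested members (red diamonds) in 13 of the 14 lists (vertical axis). Dotted lines mark 2-fold. METTL1, TSFM, OS9 and CTDSP2 lie at -3.54, -3.84, -2.56 and -3.28, left of every partner in their own lists, and HMGA1 covers HMGA2 at -2.13.

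In these lists the partners differed less than the deep interval gene did, or were higher in H596. WDR4, the noncatalytic subunit that METTL1 needs, was at an FPKM of 15.6 in H2087, compared with 8.65 in H596, a difference of -0.78 beside -3.54 for METTL1. TUFM, the elongation factor that TSFM recycles, had 221 and 132, a difference of -0.74 beside -3.84. Of the 6 mitochondrial translation factors listed with TSFM, 0 passed 2-fold. Of 11 genes of the degradation route of OS9, 0 were at least 2-fold lower. The 2 at least 2-fold higher (18.2%) were SEL1L (1.31) and DERL2 (1.05), the membrane anchor and a channel component of that route. Over all genes tested 14.1% were lower and 18.0% higher by that much, so counts in lists this small do not set a list apart. Among the 4 other small phosphatases related to CTDSP2, CTDSPL had an FPKM of 3.75 in H2087, compared with 26.9 in H596, a difference of 2.55, and CTDSP1 had 26.0 and 25.6.

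In the lists of other members the picture was mixed. These lists are small, and their counts, here and in the next paragraph, are descriptions. They stand beside 14.1% of all genes tested at least 2-fold lower and 18.0% at least 2-fold higher. Of 22 cytoplasmic aminoacyl-transfer RNA synthetases and scaffold proteins listed with MARS, 5 were at least 2-fold lower, led by FARSB (-1.61), and TARS was higher, with an FPKM of 151 and 304. Of 5 genes listed with METTL1 and XPOT, the small GTPase RAN, a gene of the long interval, was lower (-1.52). Of 10 dynactin subunits with DCTN2, DCTN4 was lower (-1.01). With TBK1, 10 were tested: the adaptor TMEM173 (STING) was lower, with an FPKM of 112 and 15.4, while OPTN (1.31) and MAVS (1.15) were higher.

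Of 5 phosphatidylinositol phosphate kinases tested with PIP4K2C, PIP4K2A was lower (-2.48) and PIP5K1C higher (1.07). Of 9 genes tested with TMEM5, none of them at least 2-fold lower, DAG1 (2.27), which encodes dystroglycan itself, and POMT2 (1.55) were higher. Of 4 kinesin genes tested with KIF5A, KLC1 was lower (-1.02) and KLC4 higher (1.14). Neither USP4 nor USP11, relatives of USP15, passed 2-fold, nor did MSRA, MSRB1 and MSRB2, relatives of MSRB3. HMGA1, the only other member of its family, had 625 and 142, a difference of -2.13 that equals that of HMGA2 to the second decimal. RAN and HMGA1 have pseudogene copies, and how reads shared with such copies were divided is not stated in the sources used here.

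Common promoter motifs were searched in the 7 promoters of the deep interval. On either strand of the 300 bases, the TATA box sequence TATAAA was in 1 of 7 promoters (ATP23), beside 11.5% of all 35116. In ATP23 it stood at the end of the run farthest from the annotated start, so it is not called a TATA box here. The GC box GGGCGG, which contains a CG dinucleotide and so overlaps the count of these, was in 4 of 7, beside 15786 of the 35116 promoters, and CCAAT was in 3 of 7, beside 34.6%. In the promoter of TSFM shown above none of the 3 motifs was found. These are descriptions of letters in a short window only.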

How the data were processed

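Total RNA of untreated H2087 and H596 cells was made into stranded mRNA libraries, 1 per cell line. Per the submitters' processing notes, bcl2fastq 1.8.4, Trimmomatic, HISAT2 2.0.5 and StringTie 1.3.3b were used, with hg19 as the build. The authors deposited estimated counts per gene and transcript, which are whole numbers, and the total estimated count per library sets the precision given here. How they were made, and whether strand was used, is not given in the sources used here. The authors also deposited FPKM values, which are relative to transcript length and library size. All value columns belong to these libraries, and 2 genes of the window, as well as 1 tested member and its partner list that enter the counts, are not reported here.

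Differences are of log2(FPKM + 1), with a pseudocount of 1 and a filter of mean FPKM of at least 1. For levels, 95% Wilson intervals were taken for the fraction of the library's counts held by the gene and applied to its FPKM, with Clopper-Pearson intervals of the split of both counts used for ratios (scipy 1.17.1). They cover counting error only, and 3 counts stand for the limit of a count of 0. No test was run, since each line has 1 library. The ends of the shift were found by the smallest summed absolute deviation from 2 medians. The second pass inside that interval and the 8-fold call were chosen after seeing the data. Alternatives were a pseudocount of 0.1, other filters, TMM scaling of counts (edgeR 4.0.16, R 4.3.3), centring, single transcripts, noncoding genes included, and other interval criteria. The 2-fold calls, the ratio intervals and a single pass of the interval search were tried on simulated data. These held a short shift without a long interval around it, and the second pass was not simulated. The members and the 14 partner lists were chosen with earlier results of these data known. The text names each tested member and gives full values for the 12 most abundant, for those not lower in H596, for the genes at each end of the shift, and for members with a partner list. Members that did not pass the filter are given by counts and by the highest of them; C12orf56, AGAP2 and the partner and noncoding genes named were picked after their values were seen. Promoters of 30 of the 41 members were matched by symbol in a RefSeq table of GRCh38.p14; the others include KIF5A, SLC26A10, DTX3, ARHGEF25, B4GALNT1, METTL1, EEF1AKMT3, MON2, TBC1D30 and HMGA2. Overlaps of genes are from GENCODE on GRCh37. Python 3.11.15, numpy 2.4.6, pandas 2.3.3 and matplotlib 3.10.9 were used.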

Additional observations from a re-analysis of the deposited data

Results flagged for a closer look

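Noncoding genes of the window stood outside the comparisons above. Of 22 listed, 10 had more than 3 counts in either library and 8 had 0 in both. The 5 given here had a level in H2087 above the 3 counts that stand for a count of 0, but so did others. They were picked after their values were seen, and all 5 were lower in H596. Among the others, LOC105369187 had 25 counts in H2087 and 0 in H596, while LINC01465 and MIR616, given further below, were higher in H596.

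AGAP2-AS1, an antisense RNA within the deep interval, had an FPKM of 68.3 in H2087, compared with 2.30 in H596, a ratio of 29.7 (95% counting interval, 25.8 to 34.4). LOC100506844, between CTDSP2 and ATP23, had 39.7 and 3.44, a ratio of 11.5 (9.65 to 13.8), which is close to the 10.6 of ATP23. Both noncoding genes of the deep interval with over 100 counts thus differed like their coding neighbors or more. AGAP2-AS1 lies within AGAP2, and reads of that overlap cannot be assigned with certainty.

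A further 3 lie at the far end of the window, next to HMGA2. LOC100507065 had an FPKM of 9.57 from 510 counts in H2087 and 0 counts in H596, at least 201-fold lower against a floor of 3 counts. LINC02454 had 2.82 from 83 counts and 0 counts, at least 32.6-fold lower. RPSAP52, a pseudogene of the ribosomal protein RPSA that overlaps HMGA2 on the opposite strand, had 4.81 and 0.674, a ratio of 7.13 (5.17 to 10.1), and reads shared with its parent gene or with HMGA2 cannot be told apart. These values have no replicate check, and causes were not tested.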

How the results depend on the processing

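Of 96 values recomputed under alternatives, 66 stayed within 1.5 times for counts, at the same gene for ends, or within the counting error of the median member (0.12 on the log2 scale) for medians, and 30 did not; none of the 30 changed direction. The cause of each change was not tested. Without a filter the median over the members tested, now 39 genes, was -0.57, with noncoding genes included -1.52, on counts scaled by TMM -1.10, and with single transcripts -1.11. The first step of the interval search started at 49223539 and ended at 133338474 except in 5 settings, which all ended at 58351052: it started at 58087738 (OS9) with a mean FPKM of at least 5, at 58003963 (ARHGEF25) with single transcripts, and at 58019678 (B4GALNT1) with noncoding genes, squared deviations or a search from 45 to 80 Mb. The deep interval started at 58003963 with a pseudocount of 0.1, TMM or single transcripts, at 58087738 with a mean FPKM of at least 5, and at 58138772 (TSPAN31) without a filter. Its median was -3.50, -3.47, -3.47 and -3.57 with a pseudocount of 0.1, a mean FPKM of at least 5, no filter and TMM, respectively. The members before the split had a median of -2.91 with a pseudocount of 0.1, -2.84 with a mean FPKM of at least 5, -1.99 without a filter, -2.71 with TMM and -2.92 with single transcripts, and those after it one of -0.69 with TMM. The partner genes had a median of -0.15 with TMM. Over all settings between 11 and 21 genes of the window were at least 2-fold lower. The 11 were of 24 tested with a mean FPKM of at least 5, and the 21 of 39 with noncoding genes, which are not members. The share over all genes tested ran from 11.9% to 17.6% with the setting. Between 6 and 10 were at least 8-fold lower, while the share over all genes tested ran from 1.41% to 4.47%. The running medians over 9 and 15 genes gave no interval, because the middle of the window was above -1.

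No paired analysis was possible because there is a single library per line, and no replicate was left out for the same reason. Depth limits B4GALNT1, which had 2 counts in H596, and the members that were not tested.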

Other observations

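Of the noncoding genes of the window with over 3 counts, LINC01465 and MIR616 were higher in H596. LINC01465, near MON2, had 8 counts in H2087 and 62 counts in H596, an FPKM of 0.0972 and 0.647. MIR616, within DDIT3, had 6 counts and 8 counts, and the interval of its ratio included 1. Of 8 microRNA genes listed, the primary transcript of let-7i (MIRLET7I) had 3 counts and 1 count, and that of miR-26a-2 (MIR26A2), which lies within CTDSP2, had 1 and 0. These libraries were made from long mRNA and do not measure mature microRNAs. MIR6759, next to TSPAN31 in the deep interval, had 20 counts and 0 counts, at least 7.86-fold lower against a floor of 3 counts.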
